A study of Mus musculus with 4 samples.

Results

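The genes of cholesterol synthesis and of the SREBP2 pathway were followed in the liver mRNA of F1 hybrids between the mouse strains B6 (C57BL/6J) and MSM (MSM/Ms). The genes were chosen by name, as a list of 31 that comprises enzymes, the sterol-sensing machinery and the transport and storage of cholesterol. Of these, 28 are among the 8797 genes listed for each mouse, and 14 of the 28 have a B6-allele frequency, against 3632 of all genes (41.3%). Mvd, Sqle and Ggps1 are not in the tables used here. The mice were 4 females of 5 months. In 2 of them the mother was MSM and the father B6 (called MSM-mother mice here), and in the other 2 the parents were reversed (B6-mother mice). All of them carry 1 chromosome set of each strain, no treatment is named in the labels, and each file holds a single mouse. The reciprocal crosses differ in the strain of the mother, and since each cross is represented by 2 progeny, the strain of the mother, the litter and the housing cannot be told apart. Expression is given in FPKM (fragments per kilobase of transcript and per 1e6 mapped fragments), and the B6-allele frequency is the fraction of those reads assigned to an allele that carried B6 bases. No read counts accompany these values, so the depth behind a single FPKM or frequency is unknown and the precision was taken from the spread between mice.

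Cholesterol is made from acetyl-CoA through mevalonate, isoprenoids, squalene and lanosterol, and the liver is a main site of this synthesis. The membrane-bound factor SREBP2 (gene Srebf2) is held in the endoplasmic reticulum by SCAP and INSIG proteins when sterols are plentiful. When sterols fall, SCAP carries it to the Golgi, where proteases release a fragment that enters the nucleus and binds sterol regulatory elements, usually together with NF-Y, which binds CCAAT boxes. SREBP1 (gene Srebf1) uses the same machinery, and in liver its 1c form drives fatty acid synthesis under insulin and the sterol receptor LXR.

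Promoter sequences of RefSeq (GRCm38.p6, the assembly of mm10, from C57BL/6J), reaching from 250 bases before to 50 after an annotated start site, were given for 20 of the 28 listed genes and for Mvd and Ggps1. Acat1, Acat3, Fdft1, Fdps, Npc1, Scarb1, Soat2, Stard4 and Sqle had no entry. The 3 promoters below are shown because Hmgcs1 had the B6-allele frequency farthest from equal use and is the gene with a match to the sterol regulatory element, Mvk had the most CCAAT boxes, and Insig2 had the widest range of FPKM between mice among the genes with a frequency. Each is written 5′ to 3′ on the strand of the gene, and capitals mark matches to the sterol regulatory element consensus TCACNCCAC or to the NF-Y box CCAAT, on either strand (on the opposite strand CCAAT reads ATTGG).
Hmgcs1, chr13:119690101-119690400, plus strand: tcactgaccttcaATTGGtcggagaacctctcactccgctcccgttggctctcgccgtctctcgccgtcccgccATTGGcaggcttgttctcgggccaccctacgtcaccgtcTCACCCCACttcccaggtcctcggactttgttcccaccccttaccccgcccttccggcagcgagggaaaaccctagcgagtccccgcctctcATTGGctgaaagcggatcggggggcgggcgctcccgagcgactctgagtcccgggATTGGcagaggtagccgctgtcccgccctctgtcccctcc
Mvk, chr5:114444019-114444318, plus strand: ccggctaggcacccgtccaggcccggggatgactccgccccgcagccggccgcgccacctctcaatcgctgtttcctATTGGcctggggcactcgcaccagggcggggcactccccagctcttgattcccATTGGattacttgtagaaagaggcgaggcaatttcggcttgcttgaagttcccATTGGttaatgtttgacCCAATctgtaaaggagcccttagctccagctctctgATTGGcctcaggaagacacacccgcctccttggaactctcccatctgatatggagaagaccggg
Insig2, chr1:121332540-121332839, minus strand, the most upstream of its 3 annotated sites: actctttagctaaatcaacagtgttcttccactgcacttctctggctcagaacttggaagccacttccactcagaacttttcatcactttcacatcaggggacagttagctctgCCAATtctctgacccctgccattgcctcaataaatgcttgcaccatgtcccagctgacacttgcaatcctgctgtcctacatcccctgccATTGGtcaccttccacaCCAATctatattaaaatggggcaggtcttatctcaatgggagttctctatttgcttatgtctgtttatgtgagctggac
An exact match to the sterol regulatory element consensus was found in 1 of the 30 windows of these genes, and in 1.24% of all 32851 promoter windows. It lay in the window of Hmgcs1 and started 137 bases before the start site. Sites that differ from the consensus were not searched for. A CCAAT box on either strand was present in 19 of the 30 windows (63.3%) and in 37.4% of all windows. Mvk held 5 of them, Hmgcs1 held 4, and Hsd17b7, Msmo1 and Ggps1 held 3. Insig2 held 3 in the window shown and 0 in each window of its other annotated sites. Which of its sites was used in these livers was not tested. The E-box CACGTG, a palindrome also searched on both strands, was found in 7 of the 30 windows (23.3%), 2 of them overlapping windows of Scap, and in 7.15% of all windows. The motifs share no overlapping match in the sequences shown. A match describes letters in these windows only, and sequence differences of the MSM strain were not analysed here.

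**Figure D1:**
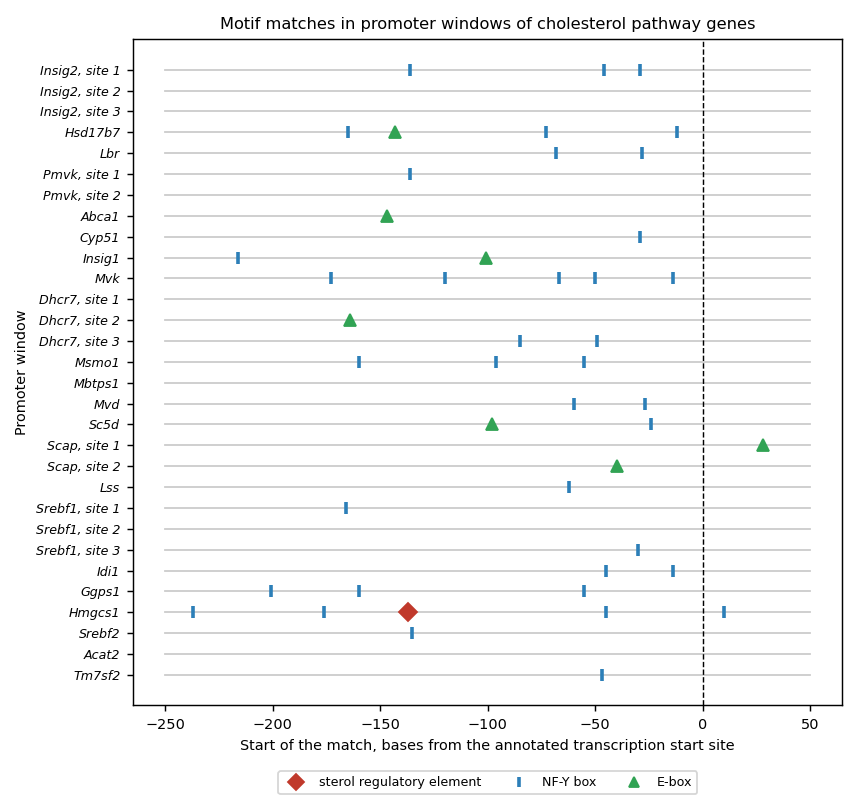
Matches to the sterol regulatory element consensus (diamond), the NF-Y box (bar) and the E-box (triangle) in the 30 promoter windows, with the horizontal axis giving the start of each match in bases from the annotated start site (dashed line) and 1 row per window. The diamond appears in the row of Hmgcs1 alone, and Mvk has the most bars, with 5.

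Most of the pathway was well expressed. The median of the mean FPKM was 22.8 over the 28 genes and 11.5 over all 8797 genes, and the range ran from 3.13 for Lbr to 173.9 for Acat3. Among hepatocyte markers, Apoa1 and Ttr stood far higher, at mean FPKM of 6313 and 3580. Of the 8 hepatocyte markers searched, 6 were listed, and Alb and Tf were not. None of the 6 lymphocyte markers searched and 1 of the 5 cholangiocyte markers (Spp1) was listed. The lowest mean FPKM of any listed gene was 2.50. Being unlisted, as Alb and Tf were, therefore does not measure the amount of a cell type. In whole liver, fewer cells of a type and less RNA per cell cannot be told apart.

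Among the enzymes, the thiolases that join acetyl-CoA units were high. Acat3, a cytosolic thiolase, was at 197.8 and 152.4 FPKM in replicates 1 and 2 of the MSM-mother mice and at 176.5 and 168.9 in those of the B6-mother mice. Its neighbour on chromosome 17, Acat2, was at 50.7, 41.7, 43.2 and 40.3 FPKM in the same order. The 2 genes share much of their sequence, since 40.7% of the 50-base windows of Acat2 transcripts and 46.9% of those of Acat3 occur in the other gene, and the way reads were divided between them is uncertain. Acat1, the mitochondrial thiolase that also serves ketone body metabolism, was at 180.7 and 208.7 FPKM in the MSM-mother mice and at 125.6 and 136.5 in the B6-mother mice, so the crosses did not overlap.
Hmgcs1, the cytosolic synthase that makes HMG-CoA, varied little, with 24.8, 21.8, 23.5 and 21.5 FPKM. Mvk, the mevalonate kinase, was low and the most even of all 28 genes, with 6.22, 5.92, 6.73 and 6.11 FPKM. Pmvk, which adds the next phosphate to mevalonate, was at 18.3 and 15.4 FPKM with an MSM mother and at 14.1 and 11.7 with a B6 mother, again without overlap. Idi1, the isomerase that makes dimethylallyl diphosphate, showed the same pattern, with 23.1 and 19.4 FPKM against 18.6 and 13.0, and the lowest of its values was that of B6-mother replicate 2. Fdps, which makes farnesyl diphosphate, was lowest in that same mouse, with 46.0 and 42.7 FPKM against 43.3 and 34.6. Of the Fdps windows, 64.1% also occur in other annotated transcripts, among them the overlapping Gm43738, and for Idi1 this share was 20%, so both FPKM are uncertain. Such a share was above 10% in 6 of the 28 genes (also Tm7sf2, which overlaps Vps51, and Fdft1), and was 0 in 17.
Squalene synthase, Fdft1, did not follow the earlier steps: it was highest in B6-mother replicate 2, at 29.1 FPKM, and lowest in MSM-mother replicate 2, at 19.4, with 24.1 and 24.0 in the other mice. Lss, which closes the ring of lanosterol, stayed between 5.05 and 6.15 FPKM. The demethylase Cyp51 did not follow the cross, with 10.01 and 10.6 FPKM in the replicates numbered 1 and 6.78 and 6.72 in those numbered 2. Dhcr7, which turns 7-dehydrocholesterol into cholesterol, gave a like picture, with 9.79 and 11.2 against 7.78 and 7.54. Hsd17b7, a sterol ketoreductase, ran the other way, at 7.84 and 6.79 FPKM in the replicates numbered 1 and 9.96 and 9.98 in those numbered 2. Sc5d, the lathosterol desaturase, and Tm7sf2, a sterol reductase, were abundant at mean FPKM of 127.0 ± 9.93 and 107.6 ± 16.01 (SD, n = 4 mice). Msmo1, a sterol oxidase, stood at 13.2 ± 1.32, and Lbr, a nuclear envelope protein with the same reductase activity as Tm7sf2, at 3.13 ± 0.431.

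**Figure D2:**
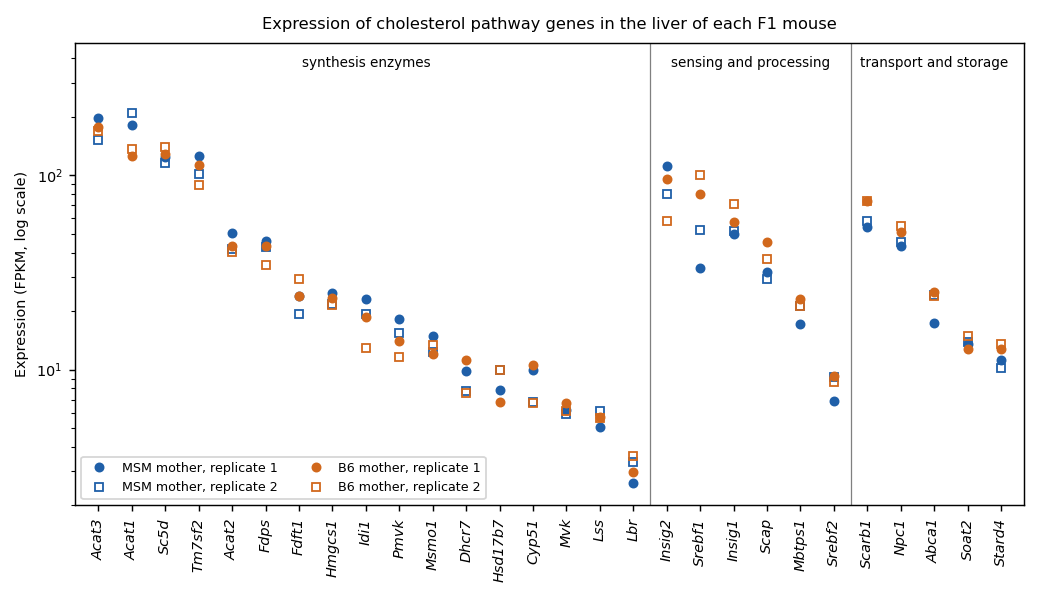
Expression in FPKM (log scale) of the 28 genes in each mouse, with blue for MSM-mother and orange for B6-mother mice, filled circles for replicate 1 and open squares for replicate 2, sorted by mean level within 3 roles. Levels run from 3.13 (Lbr) to 173.9 (Acat3) in the mean, and Srebf1 shows the widest spread, from 33.4 to 100.3.

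The sterol-sensing genes held the widest spread. Srebf1 was at 33.4 and 52.5 FPKM in the MSM-mother mice and at 80.0 and 100.3 in the B6-mother mice, and its highest value was 3.01 times its lowest. Srebf2, whose product is the main activator of cholesterol synthesis, was at 6.86, 9.18, 9.29 and 8.68 FPKM, the low value being that of MSM-mother replicate 1. The INSIG genes moved apart. Insig1, itself a target of SREBPs, was at 49.9 and 51.6 FPKM with an MSM mother and at 57.6 and 70.8 with a B6 mother. Insig2, which retains SCAP in the same manner, was at 111.2 and 80.5 against 95.8 and 57.9, a ratio of 1.92 from the highest to the lowest mouse. The mouse with the most Insig1, B6-mother replicate 2, had the least Insig2, and the mouse with the most Insig2, MSM-mother replicate 1, had the least Insig1. Scap was at 32.0 and 29.4 FPKM in the MSM-mother mice and at 45.5 and 37.2 in the B6-mother mice. Mbtps1, the protease that makes the first cut in SREBPs, was lowest in MSM-mother replicate 1, at 17.2, against 21.2 to 23.1 in the other mice.

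Among the genes of transport and storage, Scarb1, the receptor that takes up cholesteryl esters from HDL, was at 54.2 and 58.1 FPKM with an MSM mother and at 73.9 and 73.8 with a B6 mother. Npc1, which exports cholesterol from lysosomes, was at 43.3 and 45.5 against 51.1 and 54.9, and Stard4, a carrier of cholesterol between membranes, at 11.3 and 10.2 against 12.7 and 13.5. In these 3 genes both B6-mother mice lay above both MSM-mother mice, as in 19.4% of all genes. Soat2, which esterifies cholesterol, stayed between 12.8 and 14.9 FPKM. Abca1, the exporter that loads cholesterol onto apolipoprotein A1, was at 17.4 FPKM in MSM-mother replicate 1 and between 24.1 and 25.2 in the other mice.

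The variation between mice was described without a test, since each mouse was measured once. The highest mouse had at least 2 times the FPKM of the lowest in 1 of the 28 genes, Srebf1, and in 5.30% of all genes. At a ratio of 1.5 there were 7 of 28 (Srebf1, Insig2, Idi1, Acat1, Cyp51, Pmvk and Scap), and 21.7% of all genes. The median ratio was 1.37 over the 28 genes and 1.29 over all genes, and the smallest ratios were 1.14 for Mvk, 1.15 for Hmgcs1 and 1.16 for Soat2. Fdft1, at 1.499, lay just below the lower limit, and Insig2, at 1.92, just below the higher. Leaving out MSM-mother replicate 1 lowered the ratio of Srebf1 to 1.91 and left 0 genes at a ratio of 2, and leaving out B6-mother replicate 2 lowered that of Insig2 to 1.38.
To compare mice across genes, log2(FPKM + 1) was set against the mean of the 4 mice, after each mouse was centred on its median over all genes. MSM-mother replicate 1 held the highest value in 8 of the 17 enzymes and in 33.0% of all genes, and B6-mother replicate 2 held the lowest value in 8 of the 17 and in 15.0% of all genes. With quantile normalization the first of these counts was 4, and the mouse with the most highest values was B6-mother replicate 1, with 7. For the sensing genes the extremes lay elsewhere. MSM-mother replicate 1 was lowest in 4 of 6 sensing genes and in 3 of 5 transport genes, and in 32.3% of all genes. The enzymes had a median difference of 0.12 (log2) in that mouse, while the sensing and the transport genes had medians of -0.25 and -0.19.
Some genes shared the whole order of the mice. Hmgcs1, Fdps, Tm7sf2, Acat2 and Insig2 all ran from MSM-mother replicate 1 through B6-mother replicate 1 and MSM-mother replicate 2 to B6-mother replicate 2, an order held by 266 of all genes (3.02%). Srebf1, Insig1 and Npc1 ran from B6-mother replicate 2 through B6-mother replicate 1 and MSM-mother replicate 2 to MSM-mother replicate 1, as did 3.17% of all genes. Srebf2, Mbtps1 and Abca1 shared another order, with B6-mother replicate 1 highest and MSM-mother replicate 1 lowest, held by 5.25% of all genes. These orders were picked after their values were seen, many of the neighbouring values within them differ by little, and no coefficient between genes is given, as it would rest on 4 mice.

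**Figure D3:**
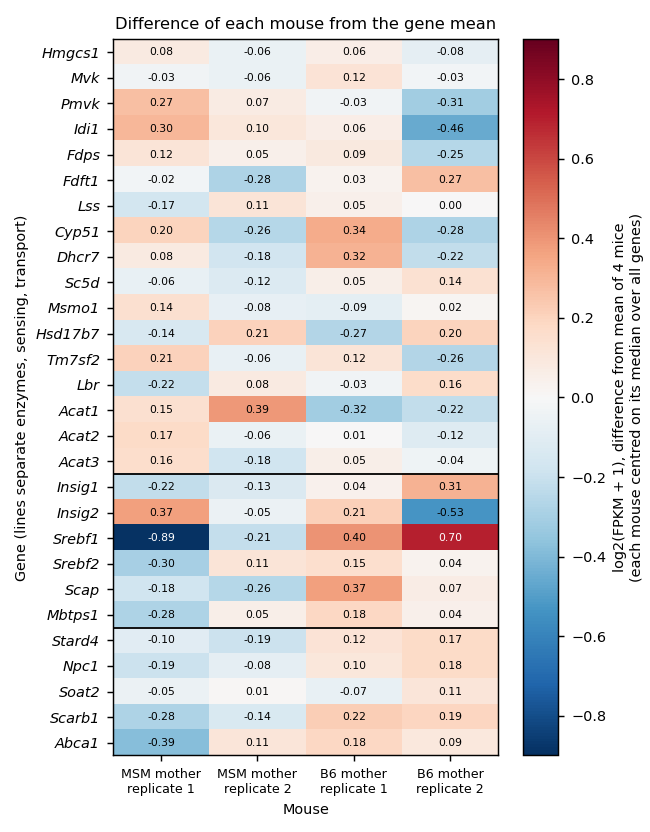
Difference of each mouse from the mean of the 4 mice in log2(FPKM + 1), after centring each mouse on its median over all genes, for the 28 genes (rows) and 4 mice (columns), with red above and blue below the mean and the value in each cell. Srebf1 runs from -0.89 to 0.70, and Insig2 from 0.37 in MSM-mother replicate 1 to -0.53 in B6-mother replicate 2, opposite to Insig1.

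Whether expression differed between the reciprocal crosses was tested with limma over all 8797 genes. None of the 28 genes passed a Benjamini-Hochberg adjusted p-value of 0.05 in limma (0 of 28), and 4 of all genes did (0.0455%). At an unadjusted p-value under 0.05, 3 of the 28 were higher with a B6 mother (Srebf1, Scarb1 and Scap, with 4.41% of all genes) and 2 were higher with an MSM mother (Acat1 and Pmvk, with 4.46%). Srebf1 differed most, by 1.08 on the log2(FPKM + 1) scale (B6 mother minus MSM mother, SE 0.24, limma adjusted p = 0.365), from mean FPKM of 42.9 with an MSM mother to 90.2 with a B6 mother. Acat1 had a difference of -0.57 (SE 0.16, limma adjusted p = 0.452), from 194.7 to 131.0 FPKM. Scap and Scarb1 differed by 0.41 (SE 0.15) and 0.39 (SE 0.13), and Pmvk by -0.37 (SE 0.15), with limma adjusted p of 0.532, 0.504 and 0.557.
The estimate was above 0 for 7 of 17 enzymes, 5 of 6 sensing genes (all but Insig2) and 5 of 5 transport genes, and for 45.9% of all genes. Both B6-mother mice lay above both MSM-mother mice in 7 of the 28 genes (Sc5d, Insig1, Srebf1, Scap, Stard4, Npc1 and Scarb1) and in 19.4% of all genes. The reverse held for 3 of the 28 (Pmvk, Idi1 and Acat1) and for 23.0% of all genes, so that 10 of the 28 and 42.4% of all genes were without overlap in either direction. The median estimate was 0.05 over the 28 genes and -0.02 over all genes. With 2 mice in each group an exact permutation test could not reach significance, and these estimates rest on the variance that limma shares across genes.
Markers of other liver cells were compared in the same way, and none of them passed the adjusted threshold. All 7 listed of 9 Kupffer cell markers had estimates above 0, with a summed FPKM of 211.9 to 247.8 in the MSM-mother mice and 274.7 to 305.3 in the B6-mother mice. Of 8 endothelial markers, 7 had estimates above 0, with sums of 140.6 to 144.2 against 159.7 to 161.9. Both lists had their main markers above 0 FPKM in every mouse (Clec4f, Cd5l, Stab2 and Clec4g among them), and Marco and Adgre1 are not in the tables. The 6 listed of 8 hepatocyte markers all had estimates below 0, with sums, mostly of Apoa1 and Ttr, of 15998 to 17453 FPKM against 12400 to 15482. Estimates were near 0 for Hnf4a (-0.012, SE 0.20), Cps1 (-0.027, SE 0.20) and Serpina1c (-0.083, SE 0.24), in which the crosses overlapped. In the other 3 both MSM-mother mice lay above both B6-mother mice, as in 23.0% of all genes. Of 5 listed stellate cell markers, 3 had estimates above 0, with sums of 120.2 to 133.8 against 101.3 to 118.6. The part of these cells in the values of Scarb1, Npc1, Abca1 and the sensing genes was not tested.

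Genes that respond to feeding and to the time of day also varied between these mice, for which the labels give neither. Of 9 listed genes of fasting and feeding, 5 had a ratio of at least 2 between mice (5.30% of all genes) and 5 had both MSM-mother mice above both B6-mother mice (23.0% of all genes). Pck1, the key enzyme of glucose production, was at 989.7 and 2045 FPKM with an MSM mother and at 405.4 and 852.3 with a B6 mother. G6pc, Igfbp1 and Angptl4 showed the same separation, with differences of -0.62, -0.99 and -1.01 (B6 mother minus MSM mother, log2), while Irs2, an adaptor of insulin signalling, was higher with a B6 mother, by 1.23 (SE 0.11, limma adjusted p = 0.0826). None of these genes passed the adjusted threshold. Of 13 listed clock genes, 6 had a ratio of at least 2 (Ciart, Per1, Nr1d1, Per2, Dbp and Per3), as did 5.30% of all genes. Per1 was at 5.17 and 14.3 FPKM in the MSM-mother mice and at 1.90 and 5.53 in the B6-mother mice. Per2 was at 1.44 and 3.74 against 1.63 and 3.69, and Per3 at 2.44 and 5.18 against 2.97 and 5.27. In these Per genes the mouse numbered 2 was the higher in both crosses, as it was in Ciart, Tef, Hlf, Cry2 and Nr1d2. In Nr1d1 and Nfil3 it was the lower in both, while Dbp, Clock and Cry1 did not follow the number. Genes outside these lists also followed the number. The orders with the mouse numbered 2 higher in both crosses were held by 5.5%, 3.9%, 3.17%, 2.81%, 1.89% and 1.28% of all genes. Those with the mouse numbered 1 higher in both were held by 6.31%, 4.96%, 4.3%, 3.96%, 3.02% and 1.55%. In allele use, the fatty acid hydroxylase gene Cyp4a14 (mean frequency 0.992), Per3 (0.607) and Pck1 (0.580) were called, with limma adjusted p of 0.000193, 0.0125 and 0.0108. The part of feeding state and time of day in the spread of Srebf1 and Insig2 was not tested.

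Allele use was tested in the 14 genes with a frequency, each of which lay beyond 100 Mb on chromosomes 1 to 15 or beyond 10 Mb on chromosomes 16 to 19, while the 14 listed genes without a frequency lay below these positions. Reads of both alleles were found for every gene, since all 56 frequencies lay between 0.422 and 0.729. Against equal use, 8 of the 14 differed at a limma adjusted p-value under 0.05, as did 36.2% of all genes with a frequency. Of the 8, 6 were biased toward the B6 allele (Hmgcs1, Dhcr7, Acat2, Insig2, Scarb1 and Npc1, with 22.6% of all genes) and 2 toward the MSM allele (Mbtps1 and Mvk, with 13.6%). None reached the mean frequency of 0.8 or 0.2 at which the study calls a gene allele-biased, which 1.84% and 1.35% of all genes did. The median of the mean frequency was 0.543 over the 14 genes and 0.510 over all genes, and 12 of the 14 lay between 0.4 and 0.6, as did 79.0% of all genes.
Hmgcs1 (ENSMUSG00000093930, chromosome 13 from 119690379 to 119708260 in GENCODE M21), whose promoter with the match to the sterol regulatory element consensus is shown above, had the strongest bias. Its B6-allele frequency was 0.729 and 0.679 in the MSM-mother mice and 0.712 and 0.707 in the B6-mother mice, a mean of 0.707 ± 0.0209 (SD, n = 4 mice). The mean log2 odds were 1.27 (SE 0.08, limma adjusted p = 0.00523), or 2.42 B6 reads for each MSM read, and all 4 mice agree in direction. At 0.7 or above, it stood among 3.80% of all genes. Dhcr7 (chromosome 7 from 143823145 to 143848410) followed with 0.611, 0.621, 0.612 and 0.632, among the most even frequencies between mice, and log2 odds of 0.70 (limma SE 0.05, adjusted p = 0.00599), or 1.62 B6 reads for each MSM read. Its FPKM, in contrast, differed by 1.48 times between the highest and the lowest mouse. Acat2 (chromosome 17 from 12942890 to 12960747) was at 0.599, 0.569, 0.571 and 0.595, and the log2 odds were 0.49 (limma SE 0.06, adjusted p = 0.0158). Acat3, which shares sequence with it, was closer to equal use at 0.532, 0.548, 0.523 and 0.517 and did not pass (limma adjusted p = 0.0651).
Mvk (chromosome 5 from 114444269 to 114460591) was the enzyme with more MSM than B6 reads, at 0.442 and 0.447 in the MSM-mother mice and 0.481 and 0.476 in the B6-mother mice. Its log2 odds of -0.22 (limma SE 0.04, adjusted p = 0.0328) correspond to 0.858 B6 reads for each MSM read. Mbtps1 (chromosome 8 from 119508156 to 119558735) had the lowest mean frequency of the 14, with 0.448, 0.430, 0.422 and 0.435 and log2 odds of -0.38 (limma SE 0.05, adjusted p = 0.0158). Insig2 (chromosome 1 from 121304353 to 121332589) was at 0.602 and 0.588 with an MSM mother and at 0.513 and 0.558 with a B6 mother, and the log2 odds were 0.38 (limma SE 0.07, adjusted p = 0.0290). The third gene of this group, Scap, lay near equal use, at 0.518, 0.515, 0.530 and 0.527 (limma adjusted p = 0.0908).
In transport, Scarb1 (chromosome 5 from 125277087 to 125341094) was at 0.538, 0.550, 0.590 and 0.562, and the log2 odds were 0.35 (limma SE 0.05, adjusted p = 0.0223). Npc1 (chromosome 18 from 12189692 to 12236400) was at 0.564, 0.533, 0.541 and 0.546, and the log2 odds were 0.27 (limma SE 0.05, adjusted p = 0.0387). Soat2 was above these in mean, at 0.566 ± 0.0461 (SD, n = 4 mice), but its mice were at 0.574, 0.499, 0.587 and 0.603 and it did not pass (limma adjusted p = 0.0594). Stard4 was at 0.488 ± 0.0194, Lbr at 0.541 ± 0.0548 and Hsd17b7 at 0.522 ± 0.0685 (SD, n = 4 mice), with mice on both sides of 0.5 in each. Lbr, the least expressed of the 14, was at 0.519, 0.489, 0.617 and 0.537. The mice of Stard4 were closer together, at 0.462, 0.493, 0.488 and 0.508, and those of Hsd17b7 are given with the comparison of the crosses. The mean was above 0.5 in 11 of the 14 genes, as in 56.4% of all genes. In 8 of the 14 every mouse lay above 0.5, as in 33.9% of all genes, and in 2 every mouse lay below it, as in 22.8%.
The calls depend on having all 4 mice. Without MSM-mother replicate 1 or without MSM-mother replicate 2, Hmgcs1 and Dhcr7 were called and the other 6 were not, and without either B6-mother mouse 0 of the 14 were called, while each estimate kept its direction. Over all genes the calls fell as well, from 822 toward B6 and 494 toward MSM to between 108 and 315 and between 73 and 199.

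**Figure D4:**
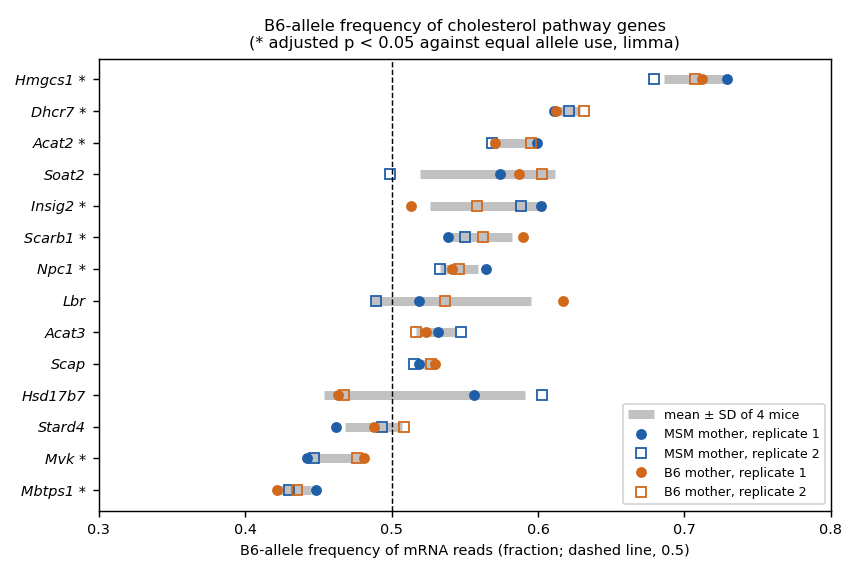
B6-allele frequency (fraction of allele-assigned mRNA reads) of the 14 genes in each mouse, with blue for MSM-mother and orange for B6-mother mice, filled circles for replicate 1, open squares for replicate 2, and grey bars for the mean ± SD of 4 mice. Hmgcs1 stands apart at 0.679 to 0.729 and Dhcr7 next at 0.611 to 0.632, while Mbtps1 and Mvk lie below 0.5 (dashed line) in every mouse, and asterisks mark the 8 genes past the threshold in limma.

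Each cross swaps the parent that gave the B6 allele, so the frequencies were also compared between the crosses, where parental origin, litter and housing cannot be told apart. None of the 14 genes passed (0 of 14 at a limma adjusted p-value under 0.05), and 3 of all 3632 genes did (0.0826%). At an unadjusted p-value under 0.05 there was 1 of the 14, Hsd17b7, and 5.23% of all genes. Hsd17b7 had frequencies of 0.556 and 0.603 in the MSM-mother mice and 0.463 and 0.467 in the B6-mother mice, so that the maternal allele was the less used in each mouse. Its log2 odds differed by -0.66 between the crosses (B6 mother minus MSM mother, SE 0.13, limma adjusted p = 0.829). In none of the other 13 genes did the crosses lie on opposite sides of 0.5. The crosses did not overlap in 8 of the 14 genes, as in 34.3% of all genes. Of the 8, 5 were higher with a B6 mother (15.9% of all genes) and 3 were higher with an MSM mother (18.4%). Insig2 was among the latter, with a difference of -0.35 (SE 0.13, limma adjusted p = 0.873), and Mvk among the former, with 0.20 (SE 0.08, limma adjusted p = 0.873).

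Further genes of the pathway came from a list of 32, of which 24 were in the tables. None of the 24 passed the test between crosses (0 of 24), with 3 higher with a B6 mother and 1 higher with an MSM mother at an unadjusted p-value under 0.05 (4.41% and 4.46% of all genes). Nsdhl, a sterol dehydrogenase, fell into the order of Insig2, at 18.3, 12.4, 14.8 and 8.77 FPKM. Ebp, a sterol isomerase, was at 213.3, 150.6, 163.3 and 147.1. Lpin1, a phosphatidate phosphatase, had the widest ratio of this list, with 195.8 FPKM in MSM-mother replicate 2 and 16.6 to 31.2 in the other mice.
Genes of fatty acid synthesis, which SREBP1 controls, were listed for 12 of 13. Fasn, the fatty acid synthase, was at 22.3 and 30.9 FPKM with an MSM mother and at 48.7 and 38.1 with a B6 mother, on the side of Srebf1. Scd1, the stearoyl-CoA desaturase, lay on the opposite side, at 1274 and 755.2 FPKM against 648.5 and 563.9, as did Thrsp, with 126.2 and 204.2 against 55.6 and 84.5. Both B6-mother mice lay above both MSM-mother mice in 5 of the 12 (Fasn, Acaca, Elovl6, Gpam and Mlxipl), and in 19.4% of all genes. The reverse held for 2 (Scd1 and Thrsp), and for 23.0% of all genes. The estimate was above 0 for 9 of the 12, and for 45.9% of all genes. None of the 12 passed the test between crosses, and at an unadjusted p-value under 0.05 there were 4 higher with a B6 mother and 1 higher with an MSM mother (4.41% and 4.46% of all genes). In allele use, Scd1 leaned to B6 at 0.598 ± 0.00632 (SD, n = 4 mice, limma adjusted p = 0.00699) and Elovl6 to MSM at 0.435 ± 0.0164 (limma adjusted p = 0.0157).
Of 9 listed genes of bile acid synthesis and LXR targets, Cyp7a1, which starts the conversion of cholesterol to bile acids, was at 94.0 and 93.9 FPKM with an MSM mother and at 53.8 and 50.7 in the B6-mother mice. The difference between crosses was -0.83 (SE 0.13, limma adjusted p = 0.266). Cyp8b1, the sterol hydroxylase that makes cholic acid, was called for allele use at a mean frequency of 0.199 ± 0.0519 (SD, n = 4 mice), and the log2 odds were -2.05 (limma SE 0.06, adjusted p = 0.00174). The sterol exporters Abcg5 and Abcg8, neighbouring genes that form a heterodimer, leaned to different alleles, with 0.555 ± 0.0173 for Abcg5 and 0.458 ± 0.0108 for Abcg8 (SD, n = 4 mice, limma adjusted p = 0.0328 and 0.0282).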

How the data were processed

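Liver mRNA (poly(A)-selected, stranded, paired-end) of 4 F1 mice was analysed. The authors used Trim Galore! for trimming and Tophat2 for alignment to an mm10 genome in which SNP positions were masked, kept no more than 1 alignment of a read, and deposited FPKM per gene. For the deposited fraction, the B6-allele frequency, the authors separated reads with SNPsplit and counted them per allele with Cuffdiff. Tool versions are not given in the sources used here. Summed over the 8797 genes, FPKM was 529024 to 671875 per mouse, and read depth is unknown.
Expression was tested with limma 3.58.1 (R 4.3.3) on log2(FPKM + 1) with a variance trend, a scale that understates changes of low genes. A minimum mean FPKM of 1 removed no gene. Frequencies, limited to 0.01 to 0.99, were tested as log2 odds in a single model, with the intercept for allele use and a term for the cross. All p-values are two-sided and were adjusted by Benjamini-Hochberg over the genes tested. The fits were also run on simulated data with changes larger than any estimated for the genes of the pathway. That run therefore cannot show how well differences of the sizes reported here would be found. Python 3.11.15, pandas 2.3.3 and numpy 2.4.6 handled tables. Shared sequence is the share of 50-base windows of GENCODE M21 protein-coding transcripts found in transcripts of other genes.
The genes and lists were chosen with earlier results of these data known. Named are all listed genes of the pathway, and genes of other lists that were called, had a ratio of at least 2 or were set by name, except that lists of other cells are given as sums and examples, and some genes that the rule names are not reported here. Other pseudocounts, filters, scalings, limits, thresholds, a block for the replicate number and leaving out single mice were tried.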

Additional observations from a re-analysis of the deposited data

Results flagged for a closer look

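Hsd17b7 drew attention because its mice lay above 0.5 in B6-allele frequency in one cross (0.556 and 0.603, MSM mother) and below 0.5 in the other (0.463 and 0.467, B6 mother). The difference in log2 odds was -0.66 (SE 0.13, limma adjusted p = 0.829), and Hsd17b7 is expressed at a mean FPKM of 8.64.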

How the results depend on the processing

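Under the planned settings, limma called 0 of the 28 genes in expression between crosses and 0 of the 14 in frequency between crosses, with the replicate block as the exception for expression. The labels give both crosses the replicate numbers 1 and 2, and do not say whether a number marks a shared litter or day. Deviations of mice with the same number had r = 0.00375 for log2(FPKM + 1) and 0.146 for log2 odds over all genes. Single genes, such as Per2, Per3, Cyp51 and Dhcr7, followed the number in both crosses. They were picked after their values were seen, and many of all genes do the same. With 2 pairs this does not establish a pairing. With the replicate block, 1 gene was called in expression (Srebf1, limma adjusted p = 0.000482) and 2 in allele use (Hmgcs1 and Dhcr7), against 0 and 8. Over all 8797 genes, the block raised the expression calls to 152 higher with a B6 mother and 133 higher with an MSM mother. Over the 3632 genes with a frequency, it gave 481 calls toward B6 and 294 toward MSM. The call of Srebf1 thus came from a setting that called many more genes. Leaving out single mice, with the mouse then alone in its cross assumed to vary like the other cross, gave 0 to 2 genes called in allele use and 0 to 1 with a ratio of 2. Of the allele calls, Npc1 was lost when each mouse was shifted to a median log2 odds of 0 (7 called), and tests on the frequency itself added Soat2 (9 called), as a variance trend on expression added Acat3 (9 called). In a check chosen after seeing the data, 7 of the 12 genes that share little sequence with others were called. At limits of 0.7 and 0.3, 1 gene counted as biased, and at a ratio of 1.5, 7 genes varied. Leaving out single mice turned the direction of 13 differences in expression between crosses, none of them called, whose log2 values then ranged as follows: Acat2 -0.27 to 0.00044, Acat3 -0.20 to 0.18, Cyp51 -0.26 to 0.33, Dhcr7 -0.19 to 0.32, Hmgcs1 -0.14 to 0.042, Hsd17b7 -0.34 to 0.16, Insig2 -0.70 to 0.017, Lbr -0.022 to 0.24, Lss -0.094 to 0.15, Msmo1 -0.22 to 0.037, Soat2 -0.086 to 0.11, Srebf2 -0.029 to 0.35 and Tm7sf2 -0.35 to 0.0035. Acat3 also turned on centring (0.018) and on quantile normalization (0.11). The log2 odds between crosses turned in 4 genes, again none of them called: Acat2 -0.097 to 0.086, Dhcr7 -0.025 to 0.095, Hmgcs1 -0.14 to 0.21 and Npc1 -0.12 to 0.064, and Acat2 also after the shift (0.0065). The cause was not tested, and read depth, which would set the precision of each frequency, is unknown.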
